A study of Mus musculus with 12 samples.

Results

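The genes described here are those of protein folding in the endoplasmic reticulum (ER), of its stress sensors and of ER-associated degradation, measured in the liver of Pml KO and Pml wt mice. The 34 genes were taken from a list of named genes, and each was measured by at least 1 probe set that carried its symbol alone. All 34 passed the filter on dim genes, and they stood among 17052 genes tested. The platform was the Affymetrix Mouse Gene 1.1 ST array, with total RNA of 1 sample on each, and the values are log2 of the authors' normalized intensity. The 12 arrays formed 6 groups of 2: Pml KO liver untreated, 2 h and 6 h after acetaminophen (APAP), and Pml wt liver untreated, 2 h and 6 h after APAP.

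All mice were female BALB/cByJ of 2.5 months. Treated mice received 300 mg/kg APAP intraperitoneally in warmed PBS, and no injection is recorded for untreated mice in the sources used here. The part of Pml removed in KO mice is not stated. Nothing says that the 2 samples of a group were taken from different mice, so a p-value covers only their spread, which may be technical. PML builds the nuclear bodies named after it, and APAP is oxidised in hepatocytes to a reactive metabolite that consumes glutathione.

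Hepatocytes secrete most plasma proteins, and these proteins fold in the ER lumen. The chaperone BiP (Hspa5), an HSP70 protein, binds unfolded chains with the help of J domain partners, while calnexin and calreticulin bind glycoproteins and disulfide isomerases join cysteines. Chains that fail to fold are recognised by lectins and carried back through the membrane to the proteasome, the route called ER-associated degradation. When unfolded proteins build up, the sensors IRE1 (Ern1), PERK (Eif2ak3) and ATF6 signal to the nucleus. ATF6 and the spliced form of XBP1 then activate chaperone and degradation genes, and PERK lowers translation by phosphorylating eIF2alpha.

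Some promoters of these genes carry an element through which that response is known to act, and the matches found are shown here. The ER stress element, bound by nuclear factor Y and ATF6, was searched as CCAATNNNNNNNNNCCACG on both strands of the RefSeq windows from 250 bases before to 50 bases after each gene start (build GRCm38.p6). Windows were held for 28 of the 34 genes, and 9 of these (32.1%) contained the element, against 37 of 27025 genes in the whole table (0.137%). The CCAAT box alone, which lies inside the element, stood in 22 of the 28 (78.6%) and in 41.1% of all genes. A second form of the element, ATTGG and CCACG with 1 base of any kind between them, was found in Herpud1 and Dnajb11, 2 of 28 genes (7.14%) against 0.0444% of all genes. TGACGTG, the core of the unfolded protein response element, was found in Hspa5 alone (3.57% of the 28, against 2.22% of all genes). These are matches of letters and were not tested as binding sites.

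Each match to the ER stress element is given with 6 bases on either side, read 5′ to 3′ in the direction that puts CCAAT first, with its 2 fixed blocks in capitals.
Hspa5, chr2:34772019-34772049, plus strand: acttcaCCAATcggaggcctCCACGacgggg
Hsp90b1, chr10:86705632-86705662, minus strand: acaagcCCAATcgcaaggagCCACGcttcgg
Hsp90b1, chr10:86705527-86705557, plus strand: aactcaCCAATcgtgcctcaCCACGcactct
Calr, chr8:84847069-84847099, plus strand: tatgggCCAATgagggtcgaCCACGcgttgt
Canx, chr11:50325794-50325824, minus strand: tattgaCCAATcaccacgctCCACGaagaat
Pdia6, chr12:17266485-17266515, plus strand: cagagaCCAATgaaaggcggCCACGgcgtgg
Dnajc3, chr14:118937821-118937851, plus strand: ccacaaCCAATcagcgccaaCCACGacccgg
Derl3, chr10:75893236-75893266, minus strand: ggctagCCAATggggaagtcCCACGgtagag
Syvn1, chr19:6046526-6046556, plus strand: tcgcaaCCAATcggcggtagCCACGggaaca
Creld2, chr15:88819514-88819544, minus strand: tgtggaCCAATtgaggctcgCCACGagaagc

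Derl3 and Herpud1 are the 2 genes whose response to APAP at 6 h passed the test of a difference between genotypes, so the 250 bases before their starts are given whole. Capitals mark the fixed blocks of the ER stress element in Derl3, which lies against the direction of the gene between 138 and 156 bases before its start. In Herpud1 they mark the second form of the element, between 42 and 52 bases before its start.
Derl3, chr10:75893148-75893397, plus strand: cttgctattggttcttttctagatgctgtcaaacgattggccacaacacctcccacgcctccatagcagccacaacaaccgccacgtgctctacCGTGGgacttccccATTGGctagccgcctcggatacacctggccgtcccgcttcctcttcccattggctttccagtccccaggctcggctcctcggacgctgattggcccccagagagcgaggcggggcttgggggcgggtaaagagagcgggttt
Herpud1, chr8:94386179-94386428, plus strand: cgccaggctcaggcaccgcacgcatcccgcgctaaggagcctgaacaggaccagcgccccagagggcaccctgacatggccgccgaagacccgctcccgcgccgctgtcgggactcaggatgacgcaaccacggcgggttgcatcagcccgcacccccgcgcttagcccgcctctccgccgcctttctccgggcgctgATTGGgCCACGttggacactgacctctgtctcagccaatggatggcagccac

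Before any comparison, the arrays were checked against their labels. Pml stood at log2 intensities of 7.10 and 7.97 in untreated KO liver, 7.11 and 7.50 in KO liver after 2 h, and 7.09 and 7.16 in KO liver after 6 h. The wt arrays read 8.18 and 8.46 untreated, 7.82 and 7.92 after 2 h, and 7.87 and 7.88 after 6 h. The value of 7.97, in untreated KO replicate 2, lay among those of wt liver. On the first principal component of all tested genes KO 6 h replicate 2 lay at 19.8, apart from the other 6 h arrays at 39.7 to 44.8. Arrays of 1 group correlated at 0.985 to 0.9934 across genes. The hepatocyte markers Alb, Apoa1, Ttr, Cps1, Cyp2e1 and Hnf4a were measured on every array, with a summed linear intensity of 42930 to 49830.

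In untreated liver, KO against wt asks whether loss of Pml alone alters the folding genes. Limma called 0 of the 34 genes, with 0 at an unadjusted p under 0.05, where 0.00586% of all tested genes were called higher, 0% lower, and 3.87% had an unadjusted p under 0.05. The differences ran between -0.22 and 0.48 on the log2 scale, with a median of 0.10, and 29 of 34 lay above 0. The highest were those of Sdf2l1 (0.48 ± 0.58, SE of the fit, adjusted p = 1) and Creld2 (0.37 ± 0.42, adjusted p = 1).

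At 2 h after APAP most folding genes that changed were lower than in untreated liver, in both genotypes. In KO liver 17 of 34 genes fell and 3 rose, where 20.8% and 10.6% of all tested genes did. In wt liver 12 fell and 2 rose, where 6.17% and 6.53% of all tested genes did. The median difference was -0.45 in KO and -0.34 in wt liver, against -0.07 and 0.02 over all tested genes. A gene was called at a limma p adjusted over all tested genes under 0.05. Quantile normalization gave 17 lower and 4 higher in KO liver, and over all genes 2937 lower and 2373 higher in place of 3540 and 1813. In the fits named next, each with 1 array left out, calls over all tested genes fell too. Calls of the 34 genes in KO liver numbered 12 when untreated KO replicate 2 was left out and 13 when KO 2 h replicate 2 was. Those in wt liver numbered 5 when the first replicate of untreated or of 2 h wt liver was left out, and 6 or 9 when the second of untreated or of 2 h wt liver was. Markers of other cells moved at 2 h too: of 6 Kupffer cell markers Adgre1 fell (-1.002 ± 0.15 in KO and -0.83 ± 0.15 in wt liver) and so did Timd4 (-0.79 ± 0.17 and -0.61 ± 0.17), and the other 4 did not pass. Their sum was 2638 to 3276 in KO liver at 2 h, against 3643 to 4228 untreated, and 2780 to 3161 in wt liver at 2 h, against 3635 to 3737 untreated. The 6 neutrophil markers summed to 341.8 and 708 on the KO arrays at 2 h, the higher sum in replicate 2, against 320.9 to 330.6 untreated, and to 411.5 and 413.3 in wt liver at 2 h, against 310.3 to 323.9 untreated. The part of these markers in the result was not tested.

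At 6 h the shares called in KO liver lay near those of all tested genes. In KO liver 9 of the 34 genes were lower than untreated and 5 higher, where 19.1% and 15.8% of all tested genes were. In wt liver 14 were lower and 6 higher, where 22% and 16.5% of all tested genes were. In KO liver 18 of the 34 differences lay above 0. The median difference was 0.07 in KO and -0.40 in wt liver, against -0.05 and -0.05 over all tested genes. The 2 h and 6 h differences of a genotype share its untreated arrays. Calls over all tested genes also fell in the fits named next. Calls numbered 9 in KO liver without KO 6 h replicate 1 and 12 in wt liver without wt 6 h replicate 1.

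**Figure D1:**
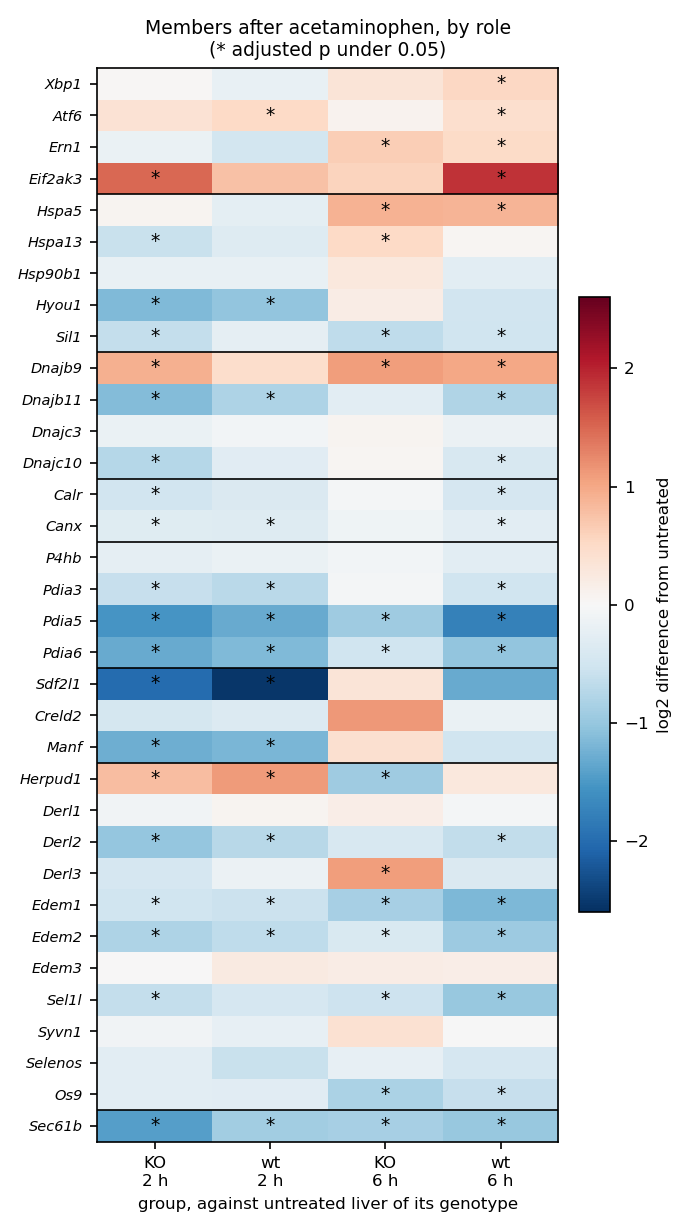
Log2 difference from untreated liver of the same genotype for the 34 genes (rows, grouped by role) in KO and wt liver at 2 h and 6 h (columns, 2 arrays per group). Asterisks mark a limma adjusted p under 0.05. Blue cells fill most of the 2 h columns, where 17 genes fell in KO and 12 in wt liver, and at 6 h 9 were lower in KO and 14 in wt liver.

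The sensor genes were among the few that rose. In wt liver at 6 h all 4 of Ern1, Eif2ak3, Atf6 and Xbp1 were higher than untreated, and in KO liver at 6 h Ern1 alone passed. Of all tested genes 16.5% were higher in wt and 15.8% in KO liver. None of the 4 passed the test of a difference of responses at 6 h, where 0.088% of all tested genes passed as higher and 0.399% as lower. Eif2ak3, which encodes the eIF2alpha kinase PERK, had log2 intensities of 8.13 and 7.94 in untreated KO liver, 9.88 and 9.18 after 2 h, and 8.90 and 8.32 after 6 h. The wt arrays read 8.15 and 7.83 untreated, 8.80 and 8.70 after 2 h, and 9.81 and 9.93 after 6 h. Its highest level thus came at 2 h in KO and at 6 h in wt liver, and the 6 h arrays of the genotypes did not overlap. Against untreated liver it rose by 1.49 ± 0.23 at 2 h in KO (adjusted p = 0.00149), while 0.76 ± 0.23 in wt did not pass (adjusted p = 0.0595). At 6 h the difference was 0.57 ± 0.23 in KO (adjusted p = 0.0829) and a rise of 1.88 ± 0.23 in wt liver (adjusted p = 0.000184).

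Ern1 encodes IRE1, the kinase and endoribonuclease that splices Xbp1 mRNA. Its log2 intensity in KO liver was 9.64 and 9.48 untreated, 9.43 and 9.36 after 2 h, and 10.14 and 10.28 after 6 h, and in wt liver 9.71 and 9.40, 8.89 and 9.25, and 10.10 and 10.01. The 6 h arrays of both genotypes lay above all other arrays. It rose at 6 h by 0.65 ± 0.14 in KO and by 0.50 ± 0.14 in wt liver (adjusted p = 0.00612 and 0.0186).

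Xbp1 encodes the transcription factor made active by that splicing, and the value per gene used here does not separate its spliced from its unspliced form. It stood at 11.23 and 11.31 in untreated KO liver, 11.42 and 11.16 after 2 h, and 11.63 and 11.58 after 6 h, and in wt liver at 11.44 and 11.15, 10.93 and 11.26, and 11.90 and 11.77. The 6 h arrays of both genotypes lay above all others. The difference from untreated at 6 h was 0.33 ± 0.15 in KO (adjusted p = 0.102) and a rise of 0.54 ± 0.15 in wt liver (adjusted p = 0.0139).

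Atf6 encodes the sensor that is cut in the Golgi to release a transcription factor. In KO liver it was at 9.88 and 9.89 untreated, 10.27 and 10.26 after 2 h, and 10.20 and 9.74 after 6 h, and in wt liver at 9.86 and 9.88, 10.42 and 10.36, and 10.31 and 10.31. The lowest 6 h value, 9.74, belonged to KO 6 h replicate 2, the array apart on the first component. The rise in wt liver was 0.52 ± 0.13 after 2 h and 0.44 ± 0.13 after 6 h (adjusted p = 0.0285 and 0.0226), while 0.38 ± 0.13 and 0.09 ± 0.13 in KO liver did not pass (adjusted p = 0.0507 and 0.654).

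**Figure D2:**
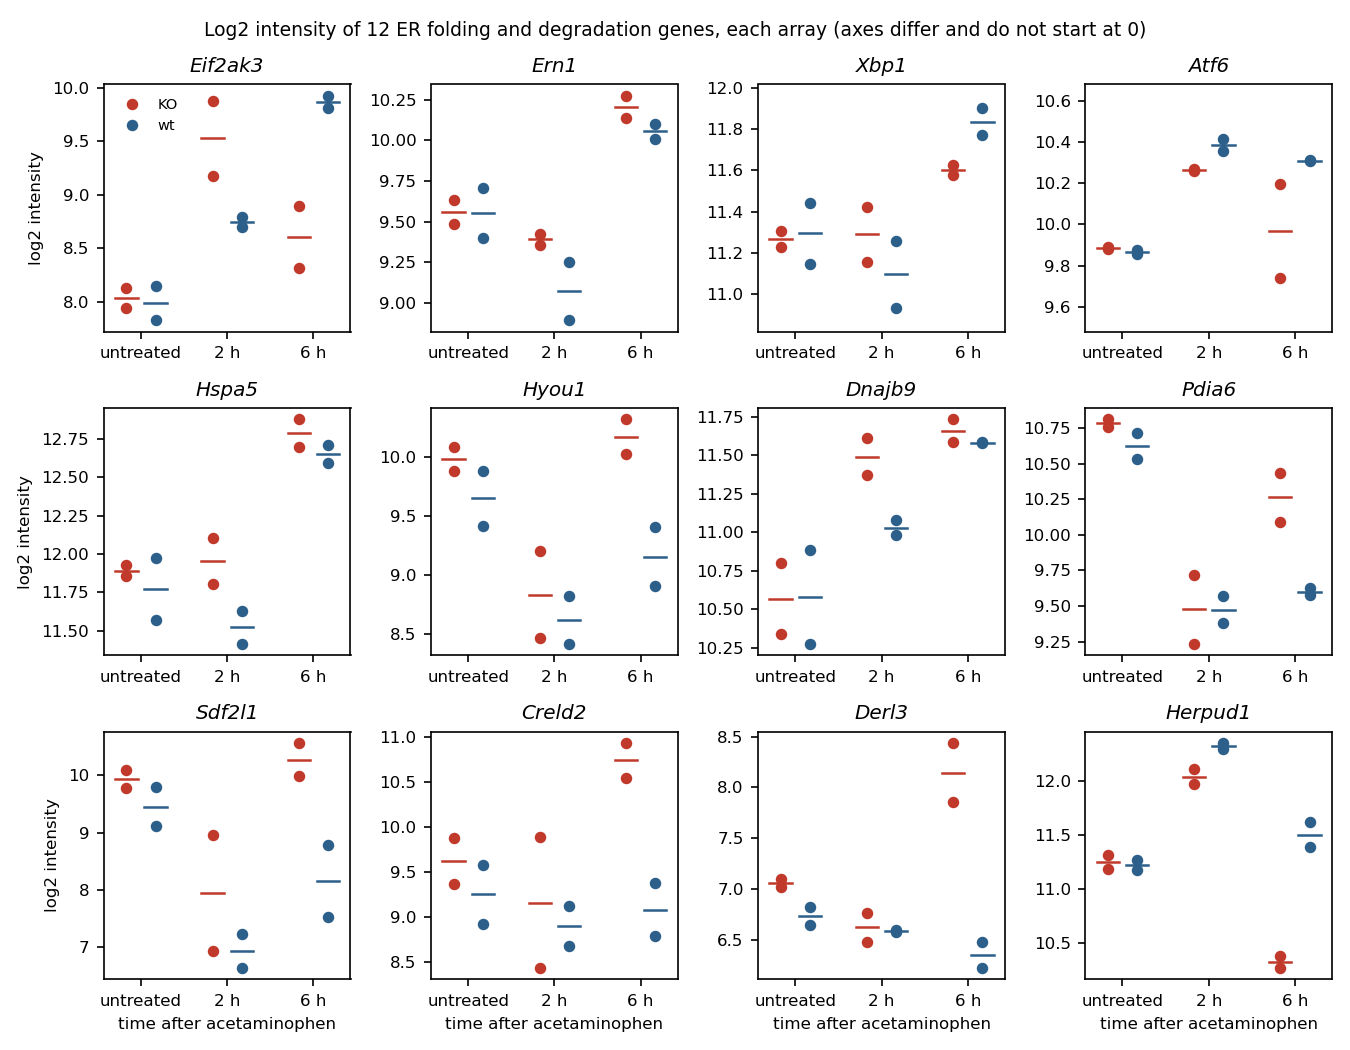
Log2 intensity on each array (points) with the mean of 2 arrays (lines) for 12 of the genes, by time after APAP, KO in red at the left and wt in blue at the right of each time. Axes differ between panels and do not start at 0. Derl3 at 6 h lies at 7.86 and 8.44 in KO against 6.47 and 6.22 in wt liver, Herpud1 at 10.27 and 10.38 against 11.61 and 11.39, and Eif2ak3 at 8.90 and 8.32 against 9.81 and 9.93.

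Among the HSP70 and HSP90 chaperones and their exchange factors, none rose at 2 h, and Hspa5 rose at 6 h in both genotypes. Hspa5, chosen for its values here after they were seen, stood at 11.85 and 11.93 in untreated KO liver, 12.10 and 11.80 after 2 h, and 12.88 and 12.70 after 6 h. The wt arrays read 11.97 and 11.57, 11.41 and 11.63, and 12.60 and 12.71 at the same times. All 6 h arrays lay above all others. The rise at 6 h was 0.90 ± 0.16 in KO and 0.88 ± 0.16 in wt liver (adjusted p = 0.00155 and 0.00145).

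Hyou1, the large HSP70-like exchange factor of BiP known as ORP150, went the other way at first. Its log2 intensity was 9.88 and 10.09 in untreated KO liver, 9.20 and 8.46 after 2 h, and 10.03 and 10.32 after 6 h, and in wt liver 9.88 and 9.42, 8.41 and 8.82, and 8.91 and 9.40. At 2 h every treated array was below the untreated arrays of its genotype. It fell by 1.15 at 2 h in KO and by 1.03 in wt liver (SE 0.27 each, adjusted p = 0.00883 and 0.0297). At 6 h it was 0.19 ± 0.27 from untreated in KO and -0.49 ± 0.27 in wt liver (adjusted p = 0.618 and 0.17).

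Hspa13, a microsomal HSP70 also called STCH, was at 9.29 and 9.64 in untreated KO liver, 9.04 and 8.74 after 2 h, and 9.92 and 10.07 after 6 h, and in wt liver at 9.40 and 9.22, 8.87 and 9.09, and 9.20 and 9.53. In KO liver it fell by 0.58 at 2 h and was 0.52 above untreated at 6 h (SE 0.17 each, adjusted p = 0.0237 and 0.032), and in wt liver -0.33 and 0.05 did not pass. Hsp90b1, the ER form of HSP90 called GRP94, was at 11.77 and 11.93, 11.86 and 11.46, and 12.06 and 12.20 in KO liver, and at 11.85 and 11.65, 11.50 and 11.60, and 11.41 and 11.53 in wt liver. None of its 4 differences from untreated passed, at -0.19 and 0.28 in KO and -0.20 and -0.28 in wt liver. Sil1, a nucleotide exchange factor of BiP, fell in KO liver at 2 h and 6 h (-0.62 and -0.65 ± 0.12) and in wt liver at 6 h (-0.52 ± 0.12).

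The J domain partners of BiP split. Dnajb9, or ERdj4, had log2 intensities of 10.80 and 10.34 in untreated KO liver, 11.37 and 11.61 after 2 h, and 11.73 and 11.58 after 6 h, and of 10.89 and 10.27, 11.08 and 10.98, and 11.58 and 11.58 in wt liver. Treated arrays lay above the untreated arrays in both genotypes. It rose by 0.92 ± 0.20 after 2 h and 1.09 ± 0.20 after 6 h in KO (adjusted p = 0.0068 and 0.00212) and by 1.001 ± 0.20 at 6 h in wt liver (adjusted p = 0.0029), and 0.45 ± 0.20 at 2 h in wt liver did not pass.

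Dnajb11, or ERdj3, a soluble partner that is also secreted, was at 9.16 and 9.39 in untreated KO liver, 8.37 and 7.92 after 2 h, and 8.80 and 9.22 after 6 h, and at 9.10 and 8.80, 7.91 and 8.39, and 8.02 and 8.30 in wt liver. It fell by 1.13 at 2 h in KO and by 0.80 after 2 h and 0.79 after 6 h in wt liver (SE 0.22 each), while -0.26 at 6 h in KO liver did not pass (adjusted p = 0.38). Dnajc10, or ERdj5, which reduces disulfides of chains bound for degradation, was at 8.56 and 8.71, 7.94 and 7.85, and 8.50 and 8.88 in KO liver, and at 8.73 and 8.55, 8.36 and 8.35, and 8.14 and 8.32 in wt liver. Its lowest arrays were those of KO liver at 2 h, and it fell by 0.74 ± 0.14 there (adjusted p = 0.00334). Dnajc3, or P58IPK, passed in neither genotype at either time (-0.17 to 0.08), and its 2 probe sets held identical values.

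Of the glycoprotein chaperones, Calr and Canx fell in KO liver at 2 h by 0.50 ± 0.13 and 0.31 ± 0.09, and in wt liver at 6 h by 0.43 ± 0.13 and 0.27 ± 0.09. Canx fell in wt liver at 2 h as well (-0.34 ± 0.09), and neither passed in KO liver at 6 h (-0.04 and -0.11). The Calr values were 11.98 and 11.97 in untreated KO liver, 11.54 and 11.41 after 2 h, and 11.86 and 12.01 after 6 h, and 11.95 and 11.77, 11.36 and 11.61, and 11.29 and 11.57 in wt liver. The KO arrays at 6 h were thus back at the level of the untreated arrays, and those of wt liver were not.

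Of the disulfide isomerases Pdia5 and Pdia6 fell in both genotypes at both times. Pdia5, a protein of the PDI family, was at 9.85 and 9.84 in untreated KO liver, 8.13 and 8.51 after 2 h, and 8.75 and 9.12 after 6 h, and at 9.73 and 9.70, 8.17 and 8.63, and 7.72 and 8.19 in wt liver. It fell at 2 h by 1.52 in KO and 1.32 in wt liver, and at 6 h by 0.91 in KO and 1.76 in wt liver (SE 0.20 each, adjusted p = 0.000749, 0.00259, 0.00619 and 0.000126). All treated arrays lay below all untreated ones.

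Pdia6, an isomerase known to end the signal of IRE1, was at 10.76 and 10.81 in untreated KO liver, 9.72 and 9.23 after 2 h, and 10.09 and 10.44 after 6 h, and at 10.72 and 10.53, 9.38 and 9.57, and 9.58 and 9.63 in wt liver. It fell by 1.31 at 2 h and 0.52 at 6 h in KO and by 1.15 and 1.02 in wt liver (SE 0.17 each). Pdia3, the partner of calnexin and calreticulin called ERp57, was at 11.66 and 11.69, 11.23 and 10.90, and 11.57 and 11.68 in KO liver, and at 11.67 and 11.53, 10.80 and 11.00, and 11.01 and 11.15 in wt liver. It fell at 2 h by 0.61 in KO and 0.70 in wt liver and at 6 h by 0.52 in wt liver (SE 0.13 each), with -0.05 in KO liver at 6 h (adjusted p = 0.809). P4hb, the isomerase PDI itself, passed nowhere (-0.07 to -0.28).

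The small luminal and secreted proteins moved over the widest range. Sdf2l1, a partner of the ERdj3 and BiP complex, stood at 9.79 and 10.09 in untreated KO liver, 8.95 and 6.93 after 2 h, and 9.99 and 10.57 after 6 h. The wt arrays read 9.81 and 9.11 untreated, 6.63 and 7.22 after 2 h, and 7.53 and 8.78 after 6 h. The 2 KO arrays at 2 h lay far apart, and all 2 h arrays lay below the untreated ones. Its differences from untreated were -2.002 in KO and -2.53 in wt liver at 2 h, and at 6 h 0.34 in KO and -1.30 in wt liver (SE 0.58 each, adjusted p = 0.0254, 0.0186, 0.692 and 0.104).

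Manf, a secreted protein that binds BiP, was at 9.77 and 10.00 in untreated KO liver, 9.08 and 8.14 after 2 h, and 10.12 and 10.47 after 6 h, and at 9.87 and 9.44, 8.26 and 8.68, and 8.82 and 9.43 in wt liver. It fell at 2 h by 1.28 in KO and 1.18 in wt liver (SE 0.31 each, adjusted p = 0.0108 and 0.0317), and at 6 h 0.41 in KO and -0.53 in wt liver did not pass. Creld2, a secreted protein with disulfide isomerase activity, was at 9.37 and 9.88, 9.89 and 8.43, and 10.55 and 10.94 in KO liver, and at 9.58 and 8.93, 8.67 and 9.12, and 8.78 and 9.38 in wt liver. Its 6 h KO arrays were the highest of the 12, and 1.12 ± 0.42 above untreated KO liver did not pass (adjusted p = 0.062).

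The degradation genes did not move as a block, with 4 of 11 lower and 1 higher in KO liver at 2 h, where 20.8% and 10.6% of all tested genes were. In wt liver at 2 h 3 were lower and 1 higher, where 6.17% and 6.53% of all tested genes were. At 6 h 5 were lower and 1 higher in KO liver, against 19.1% and 15.8% of all tested genes, and 5 lower and 0 higher in wt liver, against 22% and 16.5%. The gene that rose at 2 h in both genotypes was Herpud1, a membrane protein that gathers the degradation complex. Its log2 intensity was 11.18 and 11.31 in untreated KO liver, 12.11 and 11.97 after 2 h, and 10.27 and 10.38 after 6 h. The wt arrays read 11.17 and 11.27 untreated, 12.29 and 12.35 after 2 h, and 11.61 and 11.39 after 6 h. At 6 h KO liver therefore stood below its untreated arrays and wt liver above its own. The differences were 0.79 at 2 h and -0.92 at 6 h in KO liver (adjusted p = 0.000958 and 0.000198), and 1.10 and 0.28 in wt liver (adjusted p = 0.000298 and 0.0734, SE 0.11 each).

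Derl3, a derlin of the degradation channel known from secretory cells, was at 7.10 and 7.02 in untreated KO liver, 6.77 and 6.48 after 2 h, and 7.86 and 8.44 after 6 h. The wt arrays read 6.82 and 6.64 untreated, 6.57 and 6.59 after 2 h, and 6.47 and 6.22 after 6 h. Both KO arrays at 6 h lay above all other arrays. The wt arrays at 6 h were the lowest, with replicate 1 level with KO 2 h replicate 2 (6.47 and 6.48). Outside KO liver at 6 h the mean intensity of Derl3 in a group was 81.74 to 133.5, where array medians were 79.9 to 90.14. It rose by 1.09 ± 0.18 at 6 h in KO liver (adjusted p = 0.00117), against -0.38 ± 0.18 in wt liver (adjusted p = 0.12). Derl2, a related derlin, had 9.84 and 10.05 in untreated KO liver, 8.98 and 8.87 after 2 h, and 9.40 and 9.65 after 6 h, and 9.82 and 9.86, 8.92 and 9.34, and 9.28 and 9.12 in wt liver. It fell at 2 h by 1.01 in KO and 0.71 in wt liver and at 6 h by 0.64 in wt liver (SE 0.15 each), and -0.42 in KO liver at 6 h did not pass (adjusted p = 0.0543). Derl1 passed nowhere (-0.10 to 0.17).

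Of the EDEM lectins and mannosidases, which mark glycoproteins for degradation, Edem1 was at 11.41 and 11.42 in untreated KO liver, 10.92 and 10.86 after 2 h, and 10.43 and 10.66 after 6 h, and at 11.55 and 11.41, 10.95 and 10.89, and 10.35 and 10.29 in wt liver. Its levels at 6 h were below those at 2 h in both genotypes. It fell by 0.53 at 2 h and 0.87 at 6 h in KO and by 0.56 and 1.16 in wt liver (SE 0.11 each, adjusted p = 0.00469, 0.00019, 0.00731 and 3.55e-05). Edem2 was at 9.28 and 9.31, 8.55 and 8.45, and 8.70 and 9.10 in KO liver, and at 9.17 and 9.19, 8.44 and 8.62, and 8.12 and 8.36 in wt liver. It fell at 2 h by 0.80 in KO and 0.65 in wt liver and at 6 h by 0.40 and 0.94 (SE 0.14 each), and Edem3 passed nowhere (0.02 to 0.23).

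The ubiquitin ligase of the pathway is HRD1, encoded by Syvn1, and Sel1l encodes its adaptor. Sel1l fell at 2 h by 0.61 in KO liver, and at 6 h by 0.54 in KO and 0.98 in wt liver (SE 0.14 each), while Syvn1 passed nowhere (-0.22 to 0.40). Os9, a lectin that delivers glycoproteins to SEL1L, fell at 6 h by 0.81 in KO and 0.59 in wt liver (SE 0.10 each). Selenos, a selenoprotein of the same complex, passed nowhere, with -0.28 and -0.21 in KO and -0.58 and -0.44 in wt liver (adjusted p = 0.237, 0.364, 0.0503 and 0.0663). Sec61b, a subunit of the channel through which chains enter the ER, was at 8.28 and 8.16 in untreated KO liver, 6.97 and 6.61 after 2 h, and 7.09 and 7.61 after 6 h, and at 7.91 and 7.95, 7.03 and 7.03, and 6.91 and 6.98 in wt liver. It fell by 1.43 at 2 h and 0.87 at 6 h in KO and by 0.90 and 0.99 in wt liver (SE 0.17 each), and every treated array lay below every untreated array.

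The comparison of 6 h with 2 h within each genotype asks how the levels went on after the early fall. In KO liver 17 of 34 genes were higher at 6 h than at 2 h and 4 lower, where 19.1% and 12.6% of all tested genes were. In wt liver 4 were higher and 4 lower, where 10.9% and 16.8% of all tested genes were. The median step was 0.46 in KO and -0.02 in wt liver, against -0.01 and -0.09 over all tested genes. The largest steps up in KO liver were those of Sdf2l1 (2.34 ± 0.58), Manf (1.69 ± 0.31), Creld2 (1.59 ± 0.42), Derl3 (1.52 ± 0.18) and Hyou1 (1.34 ± 0.27), with adjusted p of 0.000293 to 0.0165. These sizes depended on single arrays. The step of Sdf2l1 was 1.33 without KO 2 h replicate 2 (adjusted p = 0.0809), 2.05 without KO 6 h replicate 2 (adjusted p = 0.076) and 3.35 without KO 2 h replicate 1, and that of Creld2 was 0.86 without KO 2 h replicate 2 (adjusted p = 0.112) and 1.39 without KO 6 h replicate 2 (adjusted p = 0.0914). With 1 array left out the steps of Manf, Derl3 and Hyou1 stayed called, at 1.22 to 2.16, 1.24 to 1.81 and 0.97 to 1.71. In wt liver the genes that rose were Hspa5 (1.13 ± 0.16), Eif2ak3 (1.12 ± 0.23), Ern1 (0.98 ± 0.14) and Xbp1 (0.74 ± 0.15), and those that fell were Herpud1 (-0.82 ± 0.11), Edem1 (-0.60 ± 0.11), Sel1l (-0.55 ± 0.14) and Os9 (-0.30 ± 0.10). Calls in KO liver numbered 13 when only the compared groups were fitted, and those over all tested genes 3101 in place of 5401. They were fewer too without KO 6 h replicate 2 or KO 2 h replicate 2, over all tested genes as among the 34.

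**Figure D3:**
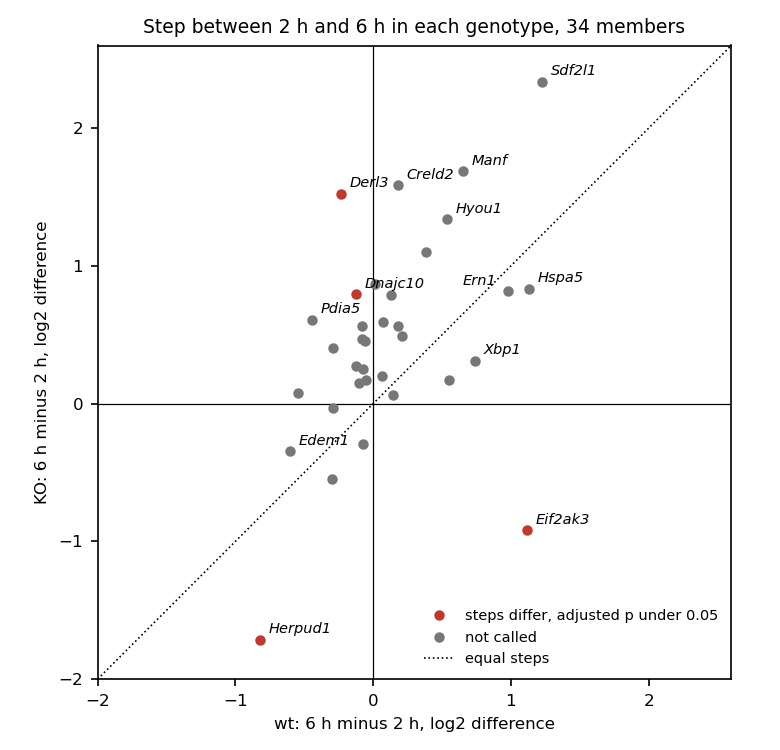
Log2 difference between 6 h and 2 h in KO liver (vertical axis) against that in wt liver (horizontal axis) for the 34 genes, 2 arrays per group. The dotted line marks equal steps, and red points mark the 4 genes whose steps differed at an adjusted p under 0.05. Most points lie above the line, with Derl3 at 1.52 in KO and -0.23 in wt liver, and Eif2ak3, at -0.92 in KO and 1.12 in wt liver, lies far below it.

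KO against wt at the same time asks whether the level after APAP depends on Pml. At 2 h limma called 0 of the 34 genes, with 6 at an unadjusted p under 0.05, where 0.411% of all tested genes were called higher, 1.6% lower, and 23.6% had an unadjusted p under 0.05. The lowest adjusted p was 0.0932, for Dnajc10 (-0.46 ± 0.14), and Eif2ak3 was 0.78 ± 0.23 higher in KO liver (adjusted p = 0.0935). Leaving out KO 2 h replicate 2 left 1 array in that group, and calls rose among the 34 and over all tested genes alike. After quantile normalization 99 genes of the whole array were higher and 98 lower in place of 70 and 272, and 0 of the 34 were called.

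At 6 h 13 of the 34 genes were higher in KO than in wt liver and 2 lower, where 4.09% and 4.93% of all tested genes were. The median difference was 0.38, against 0.01 over all tested genes, and 28 of 34 lay above 0. The 13 were the chaperones Hspa13, Hsp90b1, Hyou1, Dnajb11 and Calr, the isomerases Pdia3, Pdia5 and Pdia6, the luminal and secreted Sdf2l1, Creld2 and Manf, and the degradation genes Derl3 and Edem2. Differences were largest for Sdf2l1 (2.12 ± 0.58, adjusted p = 0.0491), Derl3 (1.80 ± 0.18, adjusted p = 0.000777), Creld2 (1.66 ± 0.42, adjusted p = 0.0374), Manf (1.17 ± 0.31, adjusted p = 0.0419) and Hyou1 (1.02 ± 0.27, adjusted p = 0.041). The other 8 differed by 0.50 to 0.98, and the KO arrays lay above the wt arrays for all 13. Over all tested genes the 2 groups did not overlap, with KO higher, in 29.7% and, with KO lower, in 27%.

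Herpud1 and Eif2ak3 were the 2 genes lower in KO than in wt liver at 6 h, with no overlap of the arrays, by 1.18 ± 0.11 and 1.26 ± 0.23 on the log2 scale (adjusted p = 0.000716 and 0.0136). Hspa5 itself differed by 0.14 ± 0.16 (adjusted p = 0.607), with a 95% interval of -0.21 to 0.48, and Dnajb9 by 0.08 ± 0.20 (adjusted p = 0.835), with an interval of -0.37 to 0.53. Of the 4 sensor genes Ern1, Xbp1 and Atf6 did not pass, at 0.15, -0.23 and -0.34. Calls of the 34 genes fell to 2 without wt 6 h replicate 1 or KO 6 h replicate 2, namely Derl3 and Herpud1 in both cases, and to 3 when only the compared groups were fitted. Those 3 were Creld2, Derl3 and Herpud1, and the other calls therefore rest on each of these arrays and on the spread shared by all groups. The drop was shared by the whole array. Calls over all tested genes fell in the same fits, from 1538 to 142 when only the compared groups were fitted. Hyou1, Manf and Sdf2l1 lost their call under the replicate block (adjusted p = 0.0524, 0.0533 and 0.0617). Quantile normalization gave 12 higher and 2 lower, with Calr no longer called (adjusted p = 0.0582). Over all genes it gave 823 higher and 704 lower in place of 698 and 840. Without the filter on dim genes 12 were higher and 2 lower.

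**Figure D4:**
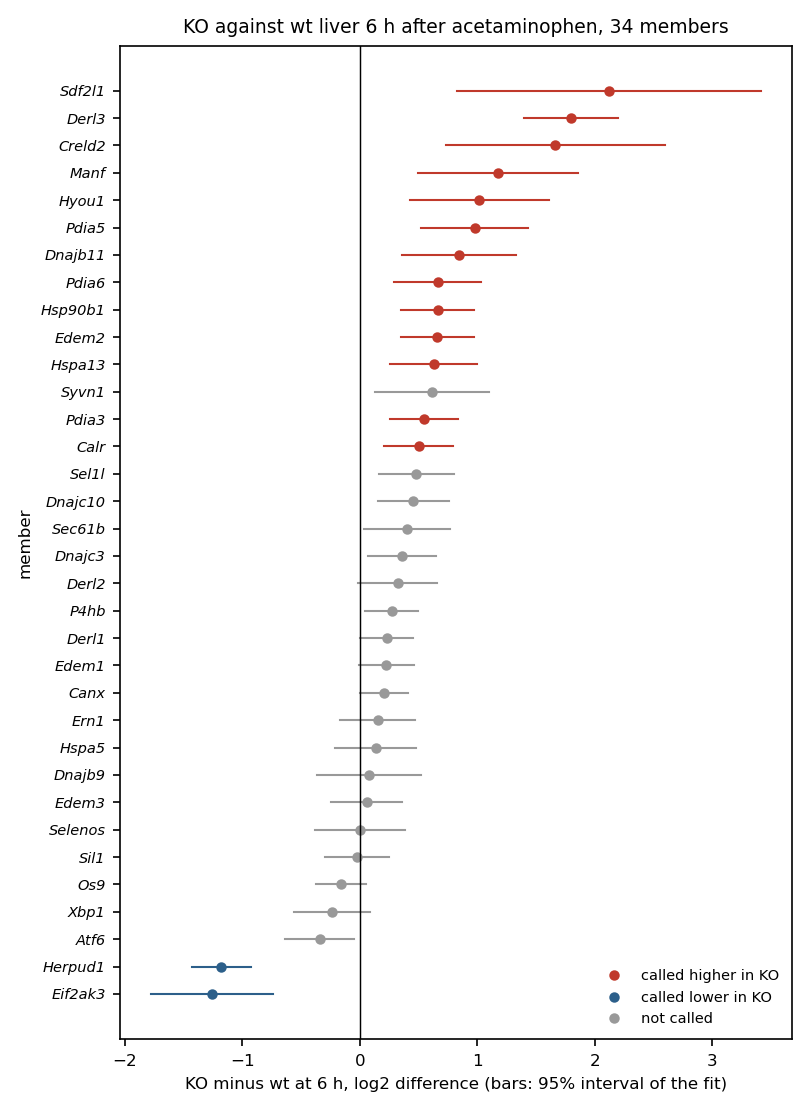
Log2 difference of KO minus wt liver at 6 h (points, 2 arrays per group) with the 95% interval of the fit (bars) for the 34 genes, in order of size. Red marks the 13 genes higher in KO liver and blue the 2 lower, at an adjusted p under 0.05, from Sdf2l1 at 2.12 to Eif2ak3 at -1.26.

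Other cell types were looked at beside the 6 h difference. Plasma cells, which express Derl3 and folding genes at high level, have the markers Jchain, Mzb1, Sdc1, Tnfrsf17 and Pou2af1. All 5 were measured, their summed linear intensity was 1536 to 1825 in KO and 1591 to 1721 in wt liver at 6 h, and 0 of the 5 differed between genotypes (-0.14 to 0.48, adjusted p of 0.157 to 0.976). Nearly all of that sum was Sdc1, which hepatocytes express too (log2 intensity 10.36 and 10.66 in KO and 10.54 and 10.46 in wt liver), so the sum says little about plasma cells. The other 4 lay at 4.94 to 6.24 in KO and 4.53 to 6.44 in wt liver. For pancreatic acinar cells, 5 of 7 markers were measured, with a sum of 236.6 to 253.3 in KO and 243.5 to 258.4 in wt liver. Neutrophil markers moved with the genotypes at 6 h. The sum of 6 of 6 was 387.4 to 496.6 in KO and 1981 to 4213 in wt liver, with S100a8 lower in KO by 2.40 ± 0.24 (adjusted p = 0.000777), and the part of this in the folding genes was not tested. Of 6 Kupffer cell markers Adgre1 was higher in KO liver (0.80 ± 0.15, adjusted p = 0.0136) and the other 5 did not pass. The 6 summed to 2786 to 3098 in KO and 2232 to 2616 in wt liver, and in bulk liver fewer cells of a type and less RNA per cell cannot be told apart.

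The difference of responses, KO minus wt, was tested directly. At 2 h 0 of the 34 genes passed, with 3 at an unadjusted p under 0.05, where 0.0117% of all tested genes passed as higher, 0.0176% as lower, and 15.3% had an unadjusted p under 0.05. At 6 h 1 gene responded more highly in KO liver and 1 less, where 0.088% and 0.399% of all tested genes did. These were Derl3, at 1.47 ± 0.25 (adjusted p = 0.0391), and Herpud1, at -1.20 ± 0.16 (adjusted p = 0.0124). Eif2ak3 did not pass, at -1.31 ± 0.33 (adjusted p = 0.111), nor did Creld2 at 1.29 ± 0.59 (adjusted p = 0.317), and 28 of 34 values lay above 0 with a median of 0.26. The count was 0 without untreated wt replicate 1 or untreated KO replicate 2, and 1 under the replicate block, in a fit of the compared groups only, or without any of untreated wt replicate 2, untreated KO replicate 1, wt 6 h replicate 1 or 2 and KO 6 h replicate 2. The call of Derl3 ended in each of these and that of Herpud1 in the first pair alone (adjusted p = 0.0695 and 0.0618).

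For the step between 2 h and 6 h the genotypes differed in 4 genes. Derl3 (1.76 ± 0.25, adjusted p = 0.012) and Dnajc10 (0.92 ± 0.19, adjusted p = 0.0311) stepped up more in KO liver, where 4.97% of all tested genes did. Eif2ak3 (-2.04 ± 0.33, adjusted p = 0.0156) and Herpud1 (-0.89 ± 0.16, adjusted p = 0.0191) stepped lower in KO liver, where 2.06% of all tested genes did. Eif2ak3 fell in KO liver by 0.92 ± 0.23 between the times (adjusted p = 0.0137) and rose in wt liver by 1.12 ± 0.23 (adjusted p = 0.00657). The median over the 34 was 0.39, against 0.09 over all tested genes. Quantile normalization gave the same 4 calls, with 343 genes higher and 355 lower over the whole array in place of 847 and 351. The count was 7 without KO 6 h replicate 1, 2 without KO 6 h replicate 2 or KO 2 h replicate 1, 1 without wt 2 h replicate 1 or wt 6 h replicate 1 or in a fit of the compared groups only, and 0 without wt 2 h replicate 2.

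Genes of the pathway outside the 34 followed in part. Of 29 tested genes of entry into the ER and of glycosylation, 22 fell at 2 h in KO and 13 in wt liver, where 20.8% and 6.17% of all tested genes did, and 0 rose in either. Among them were Spcs3, a subunit of signal peptidase (-1.51 ± 0.15 in KO and -1.10 ± 0.15 in wt liver), and Tram1, a protein beside the translocon (-0.77 ± 0.10 and -0.68 ± 0.10). Between 2 h and 6 h 17 of the 29 rose in KO liver and 1 in wt liver, where 19.1% and 10.9% of all tested genes did. The steps differed in 4, all higher in KO, where 4.97% of all tested genes were. These were Ssr2, Ostc, Rpn1 and Krtcap2 (0.64 to 1.11, adjusted p of 0.0361 to 0.0477). At 6 h 7 of 29 were higher in KO than in wt liver and 0 lower. Of all tested genes 4.09% were higher and 4.93% lower. The 7 were led by Tram1, Ostc, Ssr2 and the mannosyltransferase Alg12 (0.99 ± 0.22, adjusted p = 0.0235).

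Of 27 other tested folding genes, 15 fell at 2 h in KO and 4 in wt liver, read against the same shares, and 0 rose in either. The prolyl isomerase Fkbp2 fell by 1.01 ± 0.13 in KO and by 0.61 ± 0.13 in wt liver. At 6 h 4 were higher in KO than in wt liver and 1 lower, where 4.09% and 4.93% of all tested genes were. Those higher were Erp44, which retains thiol enzymes in the early secretory path (0.66 ± 0.11, adjusted p = 0.00856), the oxidase Ero1b (0.87 ± 0.22, adjusted p = 0.0375) and Tmx1 among them, and the lower gene was the oxidase Ero1a (-0.61 ± 0.13, adjusted p = 0.0244). Ero1a had risen at 6 h in wt liver by 1.32 ± 0.13 (adjusted p = 6.13e-05), and its difference from untreated in KO liver is not given here. None of the 27 passed the test of a difference of responses at 6 h, where 0.088% of all tested genes passed as higher and 0.399% as lower. At those shares a count of 0 says little about the list.

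Of 24 other degradation genes, 11 were higher and 6 lower than untreated at 6 h in KO liver, and 8 higher and 9 lower in wt liver. Of all tested genes 15.8% were higher and 19.1% lower in KO liver, and 16.5% higher and 22% lower in wt liver. Nploc4 and Ufd1, which with the ATPase p97 pull chains out of the membrane, both rose in wt liver at 6 h (0.79 ± 0.11 and 0.94 ± 0.12). Nploc4 rose in KO liver at 6 h too (1.01 ± 0.11), and the value of Ufd1 there is not given here. The ligase Rnf5 fell by 1.03 ± 0.12 in KO and by 1.12 ± 0.12 in wt liver. None of the 24 was called between the genotypes at 6 h (-0.18 to 0.43), where 4.09% of all tested genes were higher and 4.93% lower. None passed for the difference of responses at 6 h either (-0.27 to 0.44), where 0.088% and 0.399% of all tested genes did. At the latter shares a count of 0 says little about the list. Among 20 genes of transport to the Golgi, 4 were higher in KO than in wt liver at 6 h and 1 lower. Of all tested genes 4.09% were higher and 4.93% lower. The 4 included the coat protein Sec23b at 0.78 ± 0.16 (adjusted p = 0.0195) and the cargo receptor Lman1 at 0.42 ± 0.11 (adjusted p = 0.038).

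Genes near the sensors included the PERK arm. Atf4, the factor translated when eIF2alpha is phosphorylated, rose by 1.47 ± 0.15 after 2 h and 0.79 ± 0.15 after 6 h in KO liver, and by 0.84 ± 0.15 and 0.98 ± 0.15 in wt liver. Its step between the times was lower in KO liver by 0.81 ± 0.21 (adjusted p = 0.0459). Ppp1r15a, the phosphatase subunit GADD34 that reverses this phosphorylation, was lower in KO than in wt liver at 6 h by 1.52 ± 0.40 (adjusted p = 0.0435). It had risen by 2.49 ± 0.40 at 2 h in KO and by 2.03 ± 0.40 after 2 h and 3.38 ± 0.40 after 6 h in wt liver. Its difference from untreated in KO liver at 6 h is not given here. None of the 20 tested genes near the sensors passed the test of a difference of responses at 6 h. Of all tested genes 0.088% passed as higher and 0.399% as lower, so a count of 0 says little about the list. Creb3l2, an ER-bound factor related to ATF6, was higher than untreated at 6 h in KO (0.93 ± 0.12) and wt liver (1.05 ± 0.12). Of the 20 genes tested in this list, 0 were higher and 2 lower in KO than in wt liver at 6 h. The shares of all tested genes were 4.09% and 4.93%. The 2 lower genes were Bbc3 (-0.795 ± 0.15, adjusted p = 0.0148) and Ppp1r15a.

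The ER stress element was used once more to find genes outside the list. Of the 28 other genes that held it, 9 were tested, and 3 of these were higher in KO than in wt liver at 6 h and 0 lower, where 4.09% and 4.93% of all tested genes were: Spats2l (0.82 ± 0.12, adjusted p = 0.00572), Alg12 and Ero1b. The element of Alg12 is that of Creld2, since both starts lie on either side of chr15:88819520-88819538 and run in opposite directions. Of the 9 listed genes with the element 5 were higher in KO liver, namely Hsp90b1, Calr, Pdia6, Derl3 and Creld2, while Hspa5, Canx, Dnajc3 and Syvn1 did not pass. Of the 19 listed genes with a window but without the element 5 were higher and 2 lower, and no difference between these groups was tested. The median difference was 0.61 over the 9 listed genes with the element and 0.27 over the 19 listed genes without it. It was 0.22 over the 9 genes outside the list, against 0.01 over all tested genes. Hspa13, Hyou1 and Manf, also higher in KO liver, had no window and stand in none of these groups.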

How the data were processed

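RNA of 12 liver samples was measured on Affymetrix Mouse Gene 1.1 ST arrays. Per the submitters' processing notes, the authors ran RMA in Affymetrix Expression Console (version not stated). What they deposited is intensity after normalization, not logged (array medians 79.9 to 90.14), and log2 was taken here. Number of arrays limits the precision. Of 35556 probe sets, 21218 carried 1 gene symbol, for 18820 genes; the platform's symbols were updated by gene ID through the RefSeq table (GRCm38.p6). A gene's probe set with the highest mean was used, and 17052 genes with a mean log2 of at least 5 were tested. Limma 3.58.1 in R 4.3.3 fitted 6 group means over all arrays (6 residual and 4.33 prior degrees of freedom, no trend). P-values are two-sided and Benjamini-Hochberg adjusted over all tested genes for each of 12 comparisons; ± is the standard error of the fit. The fit was tested on simulated data. Members and lists were chosen with earlier results of these data known. Every gene called with a log2 difference of at least 1 after APAP or called between genotypes, and each sensor, is given per array. Genes named from other lists were picked among the called genes (at most 4) with the smallest p in a comparison. Not all of those are named. Alternatives are named below. Protein sequences were not analysed here.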

Additional observations from a re-analysis of the deposited data

Results flagged for a closer look

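Each result given here is a difference between the responses of KO and wt liver that passed its own test (limma, adjusted p under 0.05); groups of 2 arrays allow no test for a single array that stands apart. For the response at 6 h against untreated, Derl3 stood at 1.47 ± 0.25 and Herpud1 at -1.20 ± 0.16 on the log2 scale, KO minus wt. For the step between 2 h and 6 h, Derl3 stood at 1.76 ± 0.25, Dnajc10 at 0.92 ± 0.19, Eif2ak3 at -2.04 ± 0.33 and Herpud1 at -0.89 ± 0.16. Both sets share the 6 h arrays.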

How the results depend on the processing

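Of 118 calls of a listed gene in a comparison, none changed direction under any alternative (0 of 1435 values), and 54 held under all of them. Filtering was dropped or raised to 7, values were quantile normalized or offset by 16 before the log, probe sets were averaged within a gene, eBayes was given a trend, the fit was limited to the groups in question or blocked by replicate number, and arrays were left out singly. Derl3, below a mean log2 of 7, had no value under that filter. With 1 array left out, calls ran from 12 to 20 for KO at 2 h (20 with all arrays), 5 to 9 for wt at 2 h (14), 9 to 15 for KO at 6 h (14), 12 to 19 for wt at 6 h (20), 11 to 23 for the KO step (21) and 6 to 7 for the wt step (8). They ran from 0 to 2 for KO against wt at 2 h (0), 2 to 13 at 6 h (15), 0 to 3 for the difference of responses at 6 h (2) and 0 to 7 for that of steps (4), and stayed 0 for untreated liver and the 2 h responses. In a fit limited to those groups, which has fewer arrays, calls were 13 for the KO step, 3 for KO against wt at 6 h, 1 for the 6 h responses and 1 for the steps. A mean log2 of at least 7 left 1 call for the 6 h responses, and so did the replicate block. The labels number replicates 1 and 2 in each group. Deviations of like-numbered arrays correlated at -0.134 to 0.185 over 15 pairs of groups, 4 of them over 0.1. With 2 arrays per group this cannot settle whether like-numbered samples share more than a number. Under the block 12 genes were called between genotypes at 6 h (15 without) and 6 for the steps (4 without). With all genes at a mean log2 of at least 7, the median KO step over all genes moved from -0.01 to 0.13. The median for KO at 2 h moved from -0.07 to -0.14 and that for KO against wt at 6 h from 0.01 to 0.07. That for the difference of steps moved from 0.09 to 0.19. Each of these shifts went toward the median of the 34 genes. For KO against wt at 2 h the shift, from -0.10 to -0.12, went away from it.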

Other observations

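The median of the 34 genes' deviations from their means over the 12 arrays was 0.17 and 0.29 in untreated KO liver, -0.08 and -0.29 in KO liver at 2 h and 0.10 and 0.28 in KO liver at 6 h. The wt arrays gave 0.22 and 0.06 without APAP, -0.33 and -0.16 after 2 h, and -0.29 and -0.09 after 6 h.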
